A study of Mus musculus with 23 samples.

Results

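The arrays described here compare 2 groups of Wnt3-/- cells, and they are 6 of the 23 arrays of the series. One group is titled WNT3A and the other BMP4, each with 1 array at 12, 24 and 36 h of culture, and they are compared time by time. Sample titles and array names disagree about the first group. Its titles and cytokine texts give WNT3A at 50 ng/ml, and its array names give WNT3A and BMP4 together. By the titles the comparison sets WNT3A in place of BMP4, and by the array names it adds WNT3A to BMP4. The other group received BMP4 at 500 ng/ml by both labels. Below, the groups are called KO titled WNT3A and KO BMP4, where KO stands for Wnt3-/- and WT for cells with Wnt3 intact.

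All arrays hold RNA of epiblast-like cells, which model the epiblast just before gastrulation in culture. They were made from male C57BL/6 mouse embryonic stem cells kept in 2i and LIF and then moved to Activin A and bFGF. The cells carry the BV transgenes, a Blimp1-mVenus reporter, and were then cultured as floating aggregates in a medium that itself contains LIF. The other groups used here are KO cells without cytokine, WT cells with BMP4, and KO cells titled BMP4+WNT3A, whose array names give WNT3A alone. WT cells without cytokine and WT cells with WNT3A at 50 ng/ml enter the model too and share its estimate of the spread. Both genotypes are single lines, and an effect of the line cannot be told apart from one of the genotype. Each condition has 1 array per time and no replicate at any time, so the 3 times stand in for replicates. A p-value here thus sets a difference against how far the 7 conditions of a gene depart from parallel courses over the times. A change over time that all conditions share is taken out. What remains may be technical or a real course of single conditions, such as a rise at 36 h. Both count as error.

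WNT proteins are secreted by cells with the help of Porcn and Wls, bind Frizzled receptors and stabilise beta-catenin, which acts on DNA through TCF/LEF factors. The pathway switches on its own feedback genes, such as Axin2. BMP4 acts through SMAD proteins and switches on the Id genes. In the mouse embryo both signals act on the epiblast when the primitive streak and the primordial germ cells arise, and embryos without Wnt3 form no primitive streak.

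Signals are the deposited linear intensities of the Affymetrix Mouse Genome 430 2.0 array, and 13256 genes were tested. Differences are KO titled WNT3A minus KO BMP4 on the log2(signal + 16) scale after quantile normalization, averaged over the 3 times, with the standard error (SE) of the model. That scale understates the changes of dim genes. Array medians lay between 36.8 and 41.4 over the series. Precision is limited by how few arrays there are. The Gapdh 3' to 5' ratio, a measure of RNA integrity, was 1.09 to 1.44 on the 6 arrays, and the 3 arrays of the series above 2 are not among them. One of the 3 is KO without cytokine at 24 h (2.68), which serves below as the untreated level and in the step without BMP4. The others are WT with WNT3A at 24 h (4.03) and WT without cytokine at 36 h (2.30), which enter the model. Without all 3 arrays 496 genes passed the first comparison and 0 the difference between the steps. There are no detection calls, and a dim signal may be absence. In bulk RNA, fewer cells of a type and less RNA per cell cannot be told apart.

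The BMP response was measured first, because the labels differ in BMP4. Id1, which BMP signalling switches on directly, gave 5557, 8192 and 10160 over the 3 times in KO BMP4 and 5480, 7591 and 9345 in KO titled WNT3A. KO cells without cytokine read 145, 177.3 and 224.4. The signals of both groups overlapped and stood far above the untreated cells at every time. The difference in Id1 was -0.09 ± 0.43, with a 95% interval from -1.0 to 0.82 and an adjusted p of 0.948. Id2, another such target, read 1771, 3126 and 4012 in KO BMP4 and 1409, 2504 and 3304 in KO titled WNT3A, against 128 to 344.9 without cytokine. Its difference was -0.35 ± 0.26 (adjusted p = 0.539). For Id3 it was 0.11 ± 0.17. In the KO arrays titled BMP4+WNT3A, Id1 read 186.1, 256 and 1323 and Id2 84.45, 98.36 and 89.26. The values of both genes thus go against the title of WNT3A alone, and the library labelled KO titled WNT3A is named by its title throughout.

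Over all genes, 527 of 13256, or 3.98%, differed between KO titled WNT3A and KO BMP4 at a Benjamini-Hochberg adjusted p under 0.05 in limma. Of these, 241 (1.82% of all tested) were higher in KO titled WNT3A and 286 (2.16%) were lower, and with median centring in place of quantile normalization 254 were higher and 185 lower. A difference of at least 1 log2 unit was reached by 100 of the higher and 80 of the lower genes, and of at least 2 units by 32 and 9. The count depends on which times enter: without the 24 h arrays 0 genes passed in limma, with 1413 at an unadjusted p under 0.05. Without the 12 h arrays 233 passed.

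Among the 15 genes with the largest higher difference were WNT targets, WNT ligands and genes of the posterior streak. Sp5, a transcription factor induced directly by WNT signalling, read 31.12, 20.11 and 15.89 in KO BMP4 and 814.6, 487.8 and 1269 in KO titled WNT3A. KO cells without cytokine read 24.76 to 27.28, so all 3 arrays titled WNT3A stood above both other groups. The difference was 4.42 ± 0.85 (adjusted p = 0.0076). Axin2, a negative regulator of the pathway, read 43.11, 31.34 and 40.79 in KO BMP4 and 380, 326.3 and 560.3 in KO titled WNT3A. The groups did not overlap, and the difference was 2.98 ± 0.48 (adjusted p = 0.00243). Tnfrsf19, a TNF receptor family member and WNT target, read 23.92, 19.56 and 12.55 against 739.3, 754.8 and 1448. Its difference was 4.78 ± 0.65 (adjusted p = 0.000799). The zinc finger gene Sp8 differed by 1.22 ± 0.27. Its KO BMP4 signals were 11.31, 26.35 and 72.5, and those of KO titled WNT3A were 67.18, 89.26 and 126.2, so the groups overlapped while each time was higher.

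**Figure D1:**
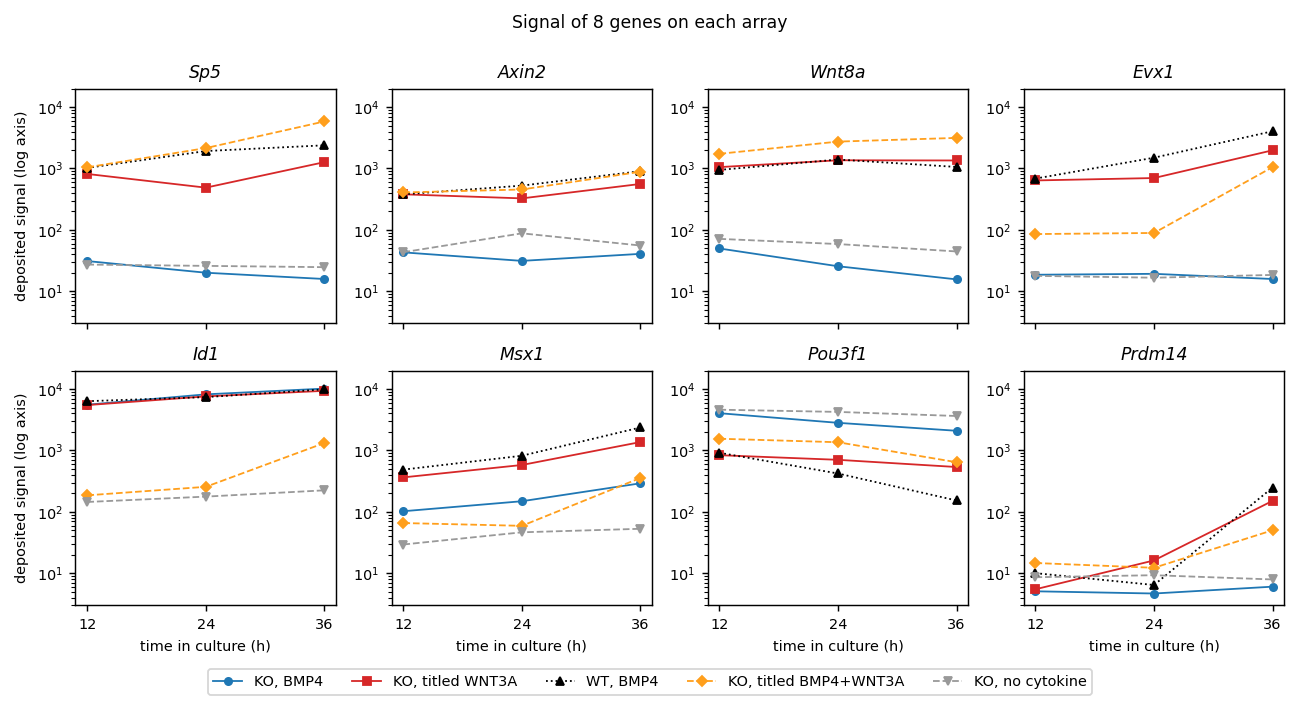
Deposited signal (log axis) against time in culture (h) for 8 genes, with 1 point per array and lines joining the arrays of a group. Sp5, Axin2, Wnt8a and Evx1 lie higher in KO titled WNT3A than in KO BMP4 at every time, Id1 lies at 5480 to 10160 in both, and Prdm14 parts mainly at 36 h, where it reads 151.2 against 6.063.

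Sp5, Axin2, Tnfrsf19 and Sp8 were the members of the 16 measured WNT feedback and target genes that passed, all higher, and 12 did not pass. Of all genes tested 1.82% were higher and 2.16% lower. This list and those below were chosen with earlier results of these data known, so an excess over these shares is not evidence about a list. The median difference of this list was 0.50, beside -0.002 over all genes tested. Members that did not pass included Lef1 at 0.66, Dkk1, a secreted inhibitor, at 1.59, Nkd1 at 0.28, Notum at -0.07 and Rnf43 at -0.34. Lef1 and Dkk1 differed mostly at 36 h. Dkk1 read 47.5 in KO BMP4 and 505 in KO titled WNT3A at that time, and 44.02 and 79.34 at 24 h.

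Promoters of the named genes were searched for the TCF/LEF core CTTTGAT on both strands, because several of these genes are WNT targets. RefSeq promoters of build GRCm38.p6 cover 250 bases before to 50 after a start, and 11 of the 15 named higher genes have at least 1 in the table. The letters occur in 3 of their 14 promoters, in 1 of 12 promoters of the named lower genes, and in 3.73% of all 32851 promoters. Among all genes that passed they occur in 3.07% of promoters of the higher and 0.965% of the lower genes, and in 2.71% of promoters of all genes tested. The 3 promoters are shown 5′ to 3′ on the strand of the gene, with the match in capitals. That of Sp5 is chr2:70474673-70474972 (+), with the first matched base at position -104 from the start. The Tnfrsf19 promoter is chr14:61037938-61038237 (-), at -202 and read on the opposite strand, and that of Wnt5b is chr6:119449337-119449636 (-), at -71. Tnfrsf19 and Wnt5b each have other promoters without a match.
Sp5: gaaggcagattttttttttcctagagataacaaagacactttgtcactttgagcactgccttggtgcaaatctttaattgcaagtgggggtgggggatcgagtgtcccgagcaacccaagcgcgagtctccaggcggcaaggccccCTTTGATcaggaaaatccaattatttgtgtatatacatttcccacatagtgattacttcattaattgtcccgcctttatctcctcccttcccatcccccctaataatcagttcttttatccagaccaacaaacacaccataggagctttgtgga
Tnfrsf19: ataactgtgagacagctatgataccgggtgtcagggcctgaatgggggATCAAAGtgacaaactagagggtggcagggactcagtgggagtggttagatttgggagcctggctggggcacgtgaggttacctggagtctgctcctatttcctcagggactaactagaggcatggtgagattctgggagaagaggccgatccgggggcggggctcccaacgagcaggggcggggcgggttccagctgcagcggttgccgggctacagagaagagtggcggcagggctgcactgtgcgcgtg
Wnt5b: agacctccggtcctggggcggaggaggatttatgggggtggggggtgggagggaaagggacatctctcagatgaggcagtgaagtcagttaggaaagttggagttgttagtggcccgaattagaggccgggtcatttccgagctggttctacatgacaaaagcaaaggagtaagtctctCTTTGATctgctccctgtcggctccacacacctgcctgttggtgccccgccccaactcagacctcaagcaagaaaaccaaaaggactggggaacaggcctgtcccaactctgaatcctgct
A match is a run of letters, not a measured binding site. Axin2 and Evx1 have no match in their windows. The T-box motif TCACACC occurs in 4.98% of promoters of higher genes, 2.25% of lower genes and 3.98% of all, and in none of the named genes. The SMAD element GTCTAGAC occurs in none of the 261 promoters of higher genes, 2 of 311 of lower genes and 0.213% of all.

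Among the WNT ligands, 3 of 11 measured genes were higher, none was lower and 8 did not pass, with a median of 0.33. Wnt8a, a ligand of the early streak, read 49.87, 25.63 and 15.67 in KO BMP4 and 1053, 1361 and 1351 in KO titled WNT3A. The KO BMP4 signals also lay below the 44.63 to 71.51 of KO cells without cytokine at the matching times. The difference was 4.82 ± 0.60 (adjusted p = 0.000497). Wnt5b read 67.65, 62.25 and 80.45 against 556.4, 596.3 and 1090, a difference of 3.09 ± 0.43. Wnt4 differed by 0.55 ± 0.13. Wnt5a (1.25) and Wnt3a (0.09) did not pass. Wnt3 itself read 13.64 to 17.27 in KO BMP4 and 17.39 to 27.86 in KO titled WNT3A, and WT cells with BMP4 reached 146 at 36 h. The labels do not say which part of the gene was removed, and its probe set may lie outside that part.

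Of 24 measured WNT receptors and transducers 4 were higher, 2 lower and 18 did not pass, with a median of -0.13. Ror2, a receptor of noncanonical WNT ligands, was higher by 2.31 ± 0.38 (352.1, 171.3 and 178.5 against 1121, 1046 and 1380). Porcn, which acylates WNT proteins, was higher by 2.19 ± 0.34 (118.6, 103.3 and 160.9 against 552.6, 564.2 and 781.4). Wls, which carries them to the cell surface, was higher by 1.12 ± 0.15. The groups did not overlap for Ror2 and Porcn. Wls read 385.3, 903.9 and 1351 in KO BMP4 and 891.4, 1687 and 3566 in KO titled WNT3A, so the groups overlapped while each time was higher. The receptor genes Fzd10 (0.64), Fzd8 (-1.19) and Fzd3 (-0.62) passed in different directions. Beta-catenin, Ctnnb1, differed by -0.06 and Tcf7l1 by -0.78, and neither passed. Among 10 measured secreted WNT inhibitors and related antagonists, Shisa2 (-1.77) and Shisa3 (-1.21) were lower, none was higher and 8 did not pass (median -0.17).

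The genes of the primitive streak had the highest median of the 28 lists, 1.41, with 5 of 15 measured genes higher, none lower and 10 that did not pass. Of all genes tested 1.82% were higher. Evx1, a homeobox gene of the posterior streak, read 18.64, 19.29 and 15.89 in KO BMP4 and 639.1, 699.4 and 1978 in KO titled WNT3A. KO cells without cytokine read 16.68 to 18.51, so the KO BMP4 arrays lay at the untreated level. The difference was 4.84 ± 0.59 (adjusted p = 0.000444). Evx1os, transcribed from the opposite strand, read 5.464 to 6.681 in KO BMP4 and 134.4, 206.5 and 797.9 in KO titled WNT3A, a difference of 3.75 ± 0.56. In RefSeq the pair overlaps over 1335 bases, so these are not independent measurements of 2 loci. Fgf8, a growth factor of the streak, read 54.95, 46.53 and 24.42 against 328.6, 455.1 and 545 (2.98 ± 0.49, adjusted p = 0.00267). Nodal, which patterns the streak, differed by 0.54 ± 0.11, from 1053 to 1113 in KO BMP4 against 1489 to 1771.

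Other streak genes differed by as much as some that passed, with more spread. Mixl1, a homeobox gene of the streak, read 8.938, 12.13 and 13.09 against 30.06, 45.25 and 354.6 (1.89 ± 0.85, adjusted p = 0.263). Eomes, a T-box gene, read 205.1, 179.8 and 177.3 against 803.4, 458.3 and 709.2 (1.69 ± 0.63, adjusted p = 0.158). In both genes the groups did not overlap. A second Eomes probe set read 69.55, 81.57 and 71.01 against 855.1, 501.5 and 891.4, a difference of 3.05 on unnormalized values, so the size depends on the probe set. Snai1, which acts in the epithelial to mesenchymal transition, differed by 1.56 ± 0.48 (adjusted p = 0.0846). Foxa2, of the anterior streak, read 18.25 to 26.35 in KO BMP4 and 24.76 to 37.53 in KO titled WNT3A. T has no probe set that names it alone and is not analysed here.

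**Figure D2:**
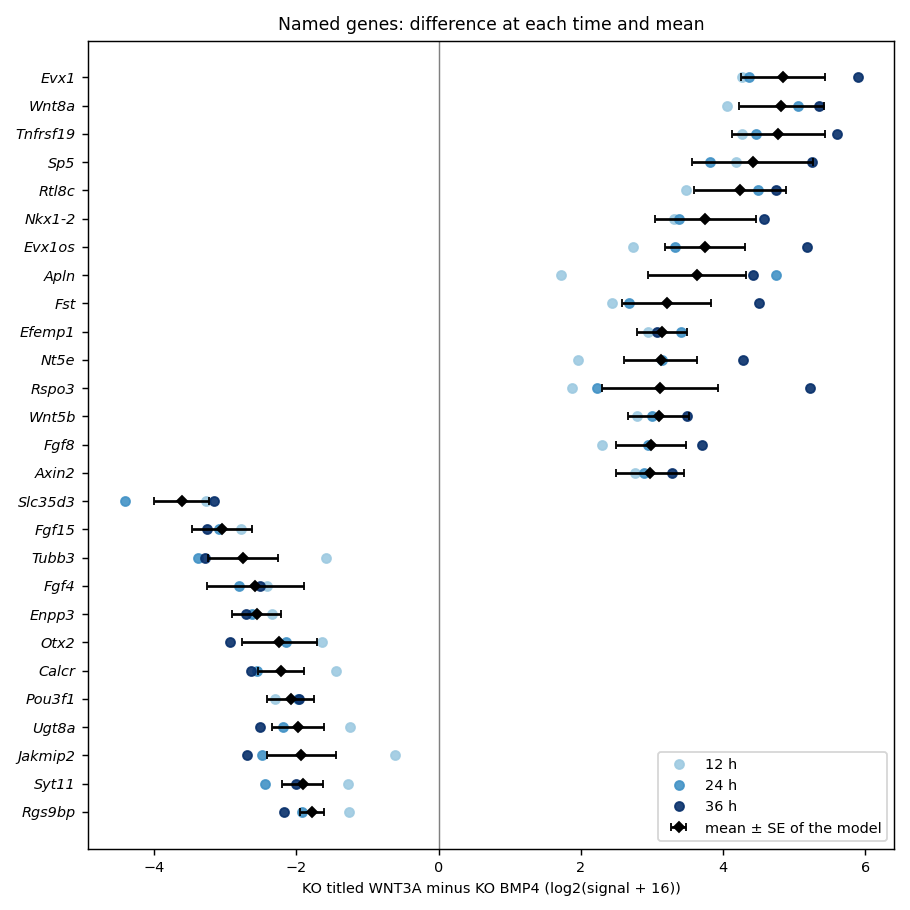
Difference of KO titled WNT3A minus KO BMP4 on the log2(signal + 16) scale for the 15 higher and 12 lower named genes, with circles for each time and diamonds for the mean with its SE. Rspo3 spans 1.88 at 12 h to 5.23 at 36 h, while Efemp1 stays between 2.94 and 3.41.

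Caudal and early mesoderm genes formed the next group. Nkx1-2, a homeobox gene of the caudal epiblast, read 17.15, 25.11 and 18.77 against 308.7, 404.5 and 855.1 (3.75 ± 0.71, adjusted p = 0.00655). It was the only one of 13 measured caudal and Hox genes to pass, and 12 did not (median 0.51, beside -0.002 over all genes tested). Hoxb1 read 9.714 in KO BMP4 and 608.9 in KO titled WNT3A at 36 h, and its mean difference was 2.81 ± 0.95 (adjusted p = 0.118). Cdx1 (1.16), Cdx2 (0.63) and Cdx4 (0.09) did not pass. Cdx2 differed by -0.17 at 12 h and 2.00 at 36 h, and Cdx4, dim on all 6 arrays, by -0.24 and 0.63. Rspo3, a secreted enhancer of WNT signalling, read 11, 16 and 13.18 against 83.87, 130.7 and 1144, a difference of 3.11 ± 0.82 (adjusted p = 0.0415). In the list of Notch and presomitic mesoderm genes Rspo3 was higher, the Notch-responsive repressors Hey1 (-1.18) and Hey2 (-1.31) were lower and 12 of 15 did not pass (median 0.36). Mesp1 differed by 1.5, Msgn1 by 0.40 and Tbx6 by 0.10, without passing.

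Apln, a peptide ligand, read 37.79, 26.17 and 26.72 against 162, 1113 and 942.3 (3.63 ± 0.69). Fst, an extracellular inhibitor of Activin, read 111.4, 129.8 and 78.25 against 689.8, 891.4 and 2165 (3.21 ± 0.63). The 12 h difference was the smallest of the 3 in both. Efemp1, an extracellular matrix protein, differed by 3.14 ± 0.35, and Nt5e, an ectoenzyme that makes adenosine, by 3.13 ± 0.51. For Nt5e 2 further probe sets reached at most 5.579 and 19.03 on the 6 arrays, below every array median, and bear on nothing. Rtl8c, a gene derived from a retrotransposon, differed by 4.24 ± 0.65, and its near-identical copies make that value uncertain. Of 19 measured lateral and extraembryonic mesoderm genes Tbx3 (1.21) and Ahnak (1.40) were higher and 17 did not pass (median 0.12). Hand1 (0.62), Gata2 (0.31) and Gata4 (-0.17) were among those. Of 19 genes of the epithelial to mesenchymal transition Zeb2 (1.45) and Pdgfa (2.42) were higher and 17 did not pass (median -0.05). Cdh1 differed by -0.05 and Cdh2 by 0.50.

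The FGF pathway was split. Of 20 measured genes, 3 were higher, 3 were lower and 14 did not pass, with a median of 0.01. Besides Fgf8, the ERK phosphatase Dusp6 (1.92 ± 0.45) and the receptor inhibitor Il17rd (1.02 ± 0.23) were higher. Fgf15 read 770.7, 1193 and 1351 in KO BMP4 and 109.9, 122.8 and 121.1 in KO titled WNT3A (-3.04 ± 0.42, adjusted p = 0.000901). Fgf4, a ligand of pluripotent cells, read 1409, 1698 and 1235 against 270.6, 227.5 and 195.4 (-2.58 ± 0.69, adjusted p = 0.0448). Both ligands were lower on all 3 arrays with no overlap, while Fgf8 was higher on all 3. Fgf5, a marker of the primed epiblast, differed by -0.58 (adjusted p = 0.603). Spry1, a feedback inhibitor, was lower by 0.53 on the log2 scale. In the Nodal and Activin pathway Nodal and Fst were higher, none was lower and 14 of 16 did not pass, Lefty1 (0.58) and Lefty2 (0.52) among them (median 0.07).

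Genes of the epiblast and of neural tissue were among the lower ones. Of 15 measured primed epiblast genes 7 were lower, none was higher and 8 did not pass, and the median, -1.05, was the lowest of the 28 lists. Of all genes tested 2.16% were lower. Pou3f1, a POU factor of the epiblast, read 4451 in KO cells at 0 h. It then read 4040, 2817 and 2091 in KO BMP4 and 837.5, 704.3 and 537.5 in KO titled WNT3A, a difference of -2.08 ± 0.33 (adjusted p = 0.00204). Otx2, a homeobox gene of epiblast and anterior neural tissue, read 596.3, 849.2 and 803.4 against 199.5, 172.4 and 83.29 (-2.24 ± 0.52, adjusted p = 0.0237). KO cells without cytokine read 657.1 to 916.5 for Otx2, so the arrays titled WNT3A lay below both other groups. Enpp3, an ectoenzyme, differed by -2.56 ± 0.34, Foxd3 by -1.71 ± 0.36, Zic5 by -1.56 ± 0.31 and the DNA methyltransferase Dnmt3a by -1.05 ± 0.17. Dnmt3b (-0.38) and Utf1 (-1.24) did not pass. Another probe set of Dnmt3b, reaching 1097, differed by -1.49 on unnormalized values, and another of Utf1, reaching 1243, by -2.1, so the size depends on the probe set.

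Of 16 measured neural ectoderm genes 3 were lower, none was higher and 13 did not pass (median -0.39). Tubb3, a neuronal tubulin, read 1252, 1075 and 1351 against 433.5, 83.87 and 117.8 (-2.75 ± 0.49, adjusted p = 0.00445). Pax6 read 101.8, 153.3 and 219.8 against 39.4, 32.45 and 34.3 (-1.66 ± 0.34). The third gene was Zic5, which the primed epiblast list holds too. The neural factor Sox1 was dim in both groups, at 31.34 to 42.22 against 16.68 to 45.25, and did not pass (-0.34). The sum of the signals of 20 neural genes was 10090 to 10550 in KO BMP4 and 6089 to 6791 in KO titled WNT3A. Bright members weigh most in such a sum. Zic5 (up to 1418), Sox3 (up to 1218) and Zic2 are in the primed epiblast list too, and Sox2 is in the core pluripotency list. The sum is thus no measure of neural cells alone. Whether a change in neural cells had a part in other results was not tested.

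Other named lower genes do not belong to these lists. Slc35d3, a nucleotide sugar transporter family member, read 526.4, 666.3 and 393.4 against 45.25, 15.35 and 25.11 and had the largest lower difference, -3.62 ± 0.38 (adjusted p = 0.000231). Rgs9bp, which anchors a regulator of G protein signalling, had the smallest adjusted p of all genes, 0.000118. It read 168.9, 237.2 and 198.1 against 67.18, 47.84 and 27.67 (-1.78 ± 0.17). Calcr, the calcitonin receptor, differed by -2.22 ± 0.33, Ugt8a, an enzyme of galactolipid synthesis, by -1.98 ± 0.37, Jakmip2 by -1.93 ± 0.48 and Syt11, a synaptotagmin, by -1.91 ± 0.29. Jakmip2 read 129.8 against 85.63 at 12 h and 200.9 against 14.42 at 36 h. None of the 12 lower and none of the 15 higher named genes had overlapping signals in the 2 groups. The rule that chose them favours this, so it adds no support, and the share of all genes without overlap was not counted. Of their 25 other probe sets 20 had the direction of the one used on unnormalized values and 5 had the opposite. On at least 1 of the 6 arrays 17 exceeded the highest array median, and all 17 had the same direction. The 5 opposite ones stayed below that limit. A probe set can pass the limit through the higher group alone, which favours a shared direction, so this adds no support. For 6 of the 17, of 5 genes, the size differed by at least 1 log2 unit, as for Nkx1-2 (0.62 and 0.49) and Tnfrsf19 (1.10). Among all measured list genes 227 other probe sets were as bright, 46 had the opposite direction and 19, of 17 genes, differed by at least 1 log2 unit from the one used. One of them is for Esrrb, at -0.15.

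Genes of pluripotency did not move as 1 group. In the naive list, 4 of 15 measured genes were higher, 1 was lower and 10 did not pass (median 0.49). Esrrb, an orphan receptor of naive cells, read 59.71, 39.4 and 61.39 against 333.1, 230.7 and 372.2 (2.24 ± 0.26, adjusted p = 0.000362). Tfcp2l1 (2.10 ± 0.47), Klf2 (1.99 ± 0.38) and Tbx3 were the other higher genes. Nr0b1 read 393.4, 304.4 and 245.6 against 102.5, 57.28 and 102.5 (-1.67 ± 0.28). Nanog was higher at each time, 1201, 1783 and 1510 against 3692, 3591 and 3169, but did not pass (1.19 ± 0.57, adjusted p = 0.297). None of the 11 core pluripotency genes passed (median 0.08). Pou5f1 read 8780 to 9345 in KO BMP4 and 7804 to 9281 in KO titled WNT3A, and Sox2 differed by -1.18 ± 0.36 (adjusted p = 0.0754).

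**Figure D3:**
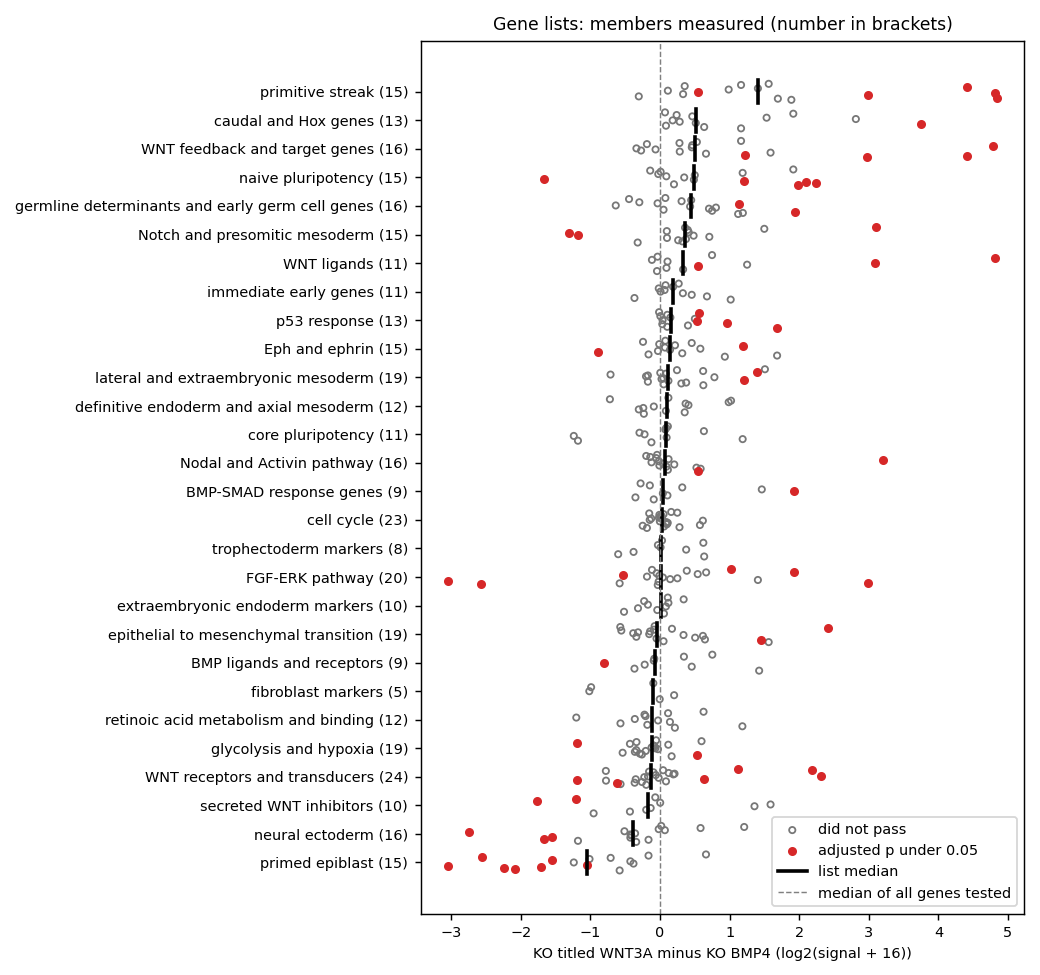
Difference of KO titled WNT3A minus KO BMP4 (log2(signal + 16)) for every measured member of 28 gene lists, ordered by list median. Filled points passed in limma, thick bars are list medians, and the dashed line is the median of all genes, -0.002. Primitive streak (1.41) and primed epiblast (-1.05) lie at the ends.

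Prdm14, a regulator of germ cell specification, read 5.098, 4.691 and 6.063 in KO BMP4 and 5.502, 16.22 and 151.2 in KO titled WNT3A. The groups overlapped at the level of the 12 h arrays and parted at 36 h. The mean difference was 1.19 ± 0.57 and did not pass (adjusted p = 0.297), with 0.04 at 12 h and 2.88 at 36 h. Prdm1, which encodes BLIMP1, read 55.72, 64.89 and 37.53 against 82.14, 116.2 and 229.1 (1.12 ± 0.31, adjusted p = 0.0506). Tfap2c, which acts with both in the germ cell programme, read 62.25, 58.89 and 155.4 against 212.3, 321.8 and 689.8 and passed (1.95 ± 0.38, adjusted p = 0.00861). Alpl, an alkaline phosphatase of germ cells, differed by 1.14 ± 0.29. These were the 2 of 16 measured germline genes that passed, both higher, and the median was 0.44. Dppa3 (0.75), Ddx4 (-0.30) and Dazl (-0.04) did not pass, and Nanos3 is not analysed here.

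Of 9 measured BMP-SMAD response genes Msx1 was higher and 8 did not pass (median 0.04). Msx1, a homeobox gene of mesoderm, read 102.5, 149.1 and 292 in KO BMP4 and 364.6, 580 and 1370 in KO titled WNT3A, against 29.45 to 53.08 without cytokine. Its difference was 1.93 ± 0.33 (adjusted p = 0.00362). Msx2 read 34.3, 78.25 and 491.1 against 167.7, 259.6 and 885.3, and did not pass (1.46 ± 0.55, adjusted p = 0.166). Smad6 (0.32), Smad7 (-0.15) and Bambi (-0.28) did not pass either. Dlx5, a list member that the filter on dim signal left out, read 7.674, 8.634 and 176.1 in KO BMP4 against 15.45, 13.64 and 16.22. Its high value rests on 1 array, and WT cells with BMP4 read 13.0 at 36 h. Among 9 BMP ligands and receptors Bmpr1b was lower (-0.81 ± 0.16) and 8 did not pass (median -0.08). Bmp4 read 63.12 in KO BMP4 and 744.4 in KO titled WNT3A at 36 h, and 46.85 and 73.01 at 24 h, and did not pass (1.42 ± 0.80).

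In the p53 list 4 of 13 measured genes were higher, none was lower and 9 did not pass (median 0.15). Cdkn1a, the cell cycle inhibitor p21, read 328.6, 439.6 and 522.8 against 1342, 1067 and 1898 (1.69 ± 0.23). Perp (0.97), Btg2 (0.57) and Phlda3 (0.54) were the others, while Mdm2 differed by 0.10 and Ccng1 by 0.03. None of 23 measured cell cycle genes passed (median 0.03) with the probe sets used. For the cyclin gene Ccnd2 the one used differed by 0.28, while another read 32.22, 36.25 and 51.98 against 137.2, 219.8 and 396.2, a difference of 2.15 on unnormalized values. Among 19 glycolysis and hypoxia genes Slc2a3 (0.53) was higher, Bnip3 (-1.20) was lower and 17 did not pass (median -0.12). In the Eph and ephrin list Efna3 (1.20) was higher, Ephb1 (-0.89) was lower and 13 of 15 did not pass (median 0.14). None of 12 genes of retinoic acid metabolism and binding passed (median -0.11), none of 11 immediate early genes (median 0.19), and none of 12 definitive endoderm and axial mesoderm genes (median 0.10). Over all lists, 361 of 431 genes were measured above the filter on dim signal, and 35 of these were higher and 21 lower. Of all genes tested 1.82% were higher and 2.16% lower. The lists were chosen with earlier results of these data known, so an excess over these shares is not evidence about the lists.

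Markers of other cell types did not pass in either direction. None of the 10 measured extraembryonic endoderm, 8 trophectoderm or 5 fibroblast markers passed, with medians of 0.01, 0.02 and -0.10. The endoderm list summed to 3706 to 5514 in KO BMP4 and 4699 to 7002 in KO titled WNT3A. The trophectoderm list summed to 596.8 to 1658 and 544.9 to 1268, and the fibroblast list to 1116 to 1458 and 1025 to 1215. The defining markers Afp (2.676 to 18.25), Elf5 (3.605 to 12.73) and Col1a1 (1.206 to 14.93) were dim on all 6 arrays, and no marker stood at the floor of 1. Thy1 read 274.4, 298.2 and 300.2 against 319.6, 121.9 and 54.95 and did not pass (-1.02).

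Whether the difference changed with time was tested as a slope per 12 h. In limma 1 of 13256 genes passed (0.00754%), with 1155 at an unadjusted p under 0.05, and in a fit of only the 12 KO arrays 41 passed. The gene was Parp9, an interferon-inducible mono-ADP-ribosyltransferase. It read 342.5, 324 and 324 in KO BMP4 and 282.1, 541.2 and 1380 in KO titled WNT3A. The difference changed by 1.26 ± 0.13 per 12 h (adjusted p = 0.0112), from -0.39 at 12 h to 2.13 at 36 h, and its mean over the times did not pass (adjusted p = 0.301). With values as deposited or with median centring no gene passed.

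Further interferon-related genes were chosen after their values were seen, and they did not move as 1 group. Irgm1, an immunity-related GTPase, read 82.71, 72.5 and 47.5 against 150.1, 398.9 and 1314, and its mean difference passed (2.45 ± 0.56, adjusted p = 0.0224). Gbp2 read 103.3, 99.04 and 126.2 against 91.14, 512 and 2419. Gbp3, another guanylate-binding protein gene, read 22.94 against 630.3 at 36 h, Rtp4 3.117 against 675.6 and Usp18, which cleaves ISG15 from proteins, 6.364 against 393.4. Their slopes lay between 1.80 for Irgm1 and 2.49 for Rtp4 per 12 h, and none of the 5 passed (adjusted p from 0.125 to 0.323). Other genes of this kind had smaller mean differences. Stat2 differed by -0.04, Ifit3 by -0.03, Irf7 by 0.20, Irf9 by 0.38 and Gbp7 by 0.34, and none passed. Ifit2 was lower in KO titled WNT3A and did not pass, with 79.34, 125.4 and 99.73 in KO BMP4 against 77.17, 63.56 and 54.95 (-0.49 ± 0.19, adjusted p = 0.169). Ifit1 was too dim for the filter and read 22.16 against 13.27 at 36 h. Parp14 (53.82 against 347.3), Igtp (436.5 against 1489) and Irf1 (1184 against 3743) were higher at 36 h in KO titled WNT3A, and their mean differences did not pass. WT cells with BMP4 were high at 36 h too for the first genes, with 1252 for Parp9, 849.2 for Irgm1 and 1771 for Gbp2. KO arrays titled BMP4+WNT3A read 989.1, 556.4 and 1978 for the same genes.

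**Figure D4:**
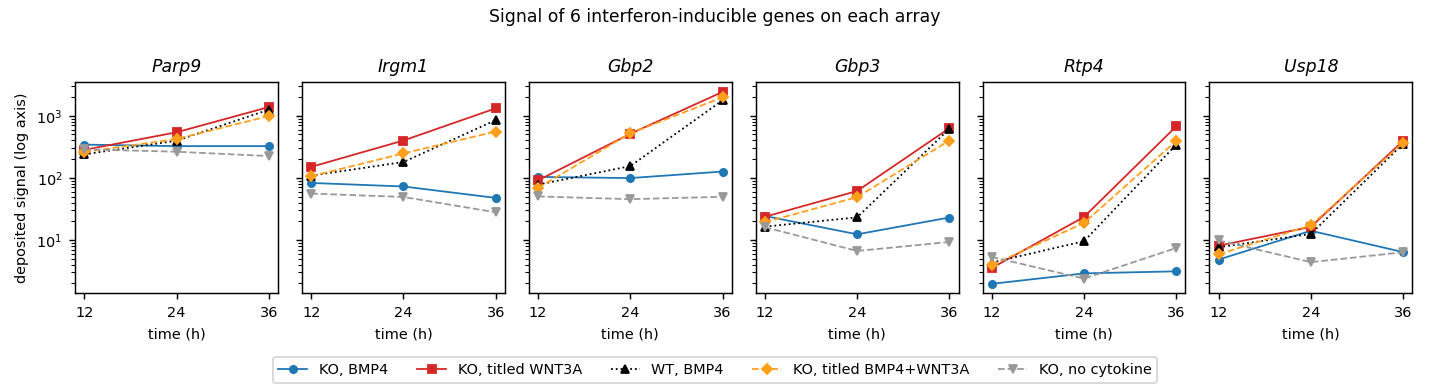
Deposited signal (log axis) against time (h) for 6 interferon-inducible genes that were picked for this course after their values were seen, 1 point per array. In these 6 genes at 36 h KO BMP4 and KO without cytokine stay low while the other 3 groups are high, as for Usp18, which reads 6.364 in KO BMP4, 393.4 in KO titled WNT3A and 354.6 in WT BMP4. Genes without this course, such as Ifit2, are not plotted.

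The next comparison sets KO titled WNT3A beside WT cells with BMP4, that is, cells whose own Wnt3 gene is intact. It uses the same KO titled WNT3A arrays as before, so values are given side by side. Sp5 read 1024, 1924 and 2385 in WT BMP4, against 814.6, 487.8 and 1269 in KO titled WNT3A, and Axin2 read 380, 526.4 and 903.9 against 380, 326.3 and 560.3. At 12 h both pairs were close, and at 24 and 36 h the WT signals were higher. The differences, KO titled WNT3A minus WT BMP4, were -1.11 ± 0.85 for Sp5 (95% interval -2.91 to 0.70) and -0.51 ± 0.48 for Axin2 (-1.53 to 0.51). Evx1 read 685, 1499 and 4040 in WT BMP4, a difference of -0.81 ± 0.59 (-2.05 to 0.44). Wnt8a read 948.8, 1399 and 1060, and Id1 6339, 7383 and 9878, with differences of 0.10 ± 0.60 and -0.13 ± 0.43. Prdm14 read 10.06, 6.453 and 249, against 5.502, 16.22 and 151.2.

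Over all genes 1 of 13256 passed (0.00754%) in limma, with 759 at an unadjusted p under 0.05. It was AI662270, named here after its values were seen, which read 142, 139.1 and 101.1 in WT BMP4 and 319.6, 306.6 and 230.7 in KO titled WNT3A (1.02 ± 0.14, adjusted p = 0.0181). KO BMP4 read 362, 276.3 and 233.9, so all KO arrays of these groups stood above the WT arrays. With the 12 h arrays left out 5 genes passed. With the 24 h arrays, the 36 h arrays or the KO arrays titled BMP4+WNT3A left out, none did. The 27 named genes differed from WT BMP4 by -1.11 to 0.91, and the 95% interval held 0 for 26 of them, which does not show that the levels are equal. The exception was Enpp3, at 207.9, 144 and 59.3 in WT BMP4 against 274.4, 222.9 and 280.1 (0.91 ± 0.34, 0.18 to 1.63), which did not pass after adjustment (adjusted p = 0.817). Esrrb read 205.1, 95.01 and 62.68 in WT BMP4 against 333.1, 230.7 and 372.2 (1.31 ± 0.26, adjusted p = 0.31), and Cdx1 60.13, 153.3 and 1287 against 52.71, 39.4 and 75.06 (-1.85 ± 0.75, adjusted p = 0.817).

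**Figure D5:**
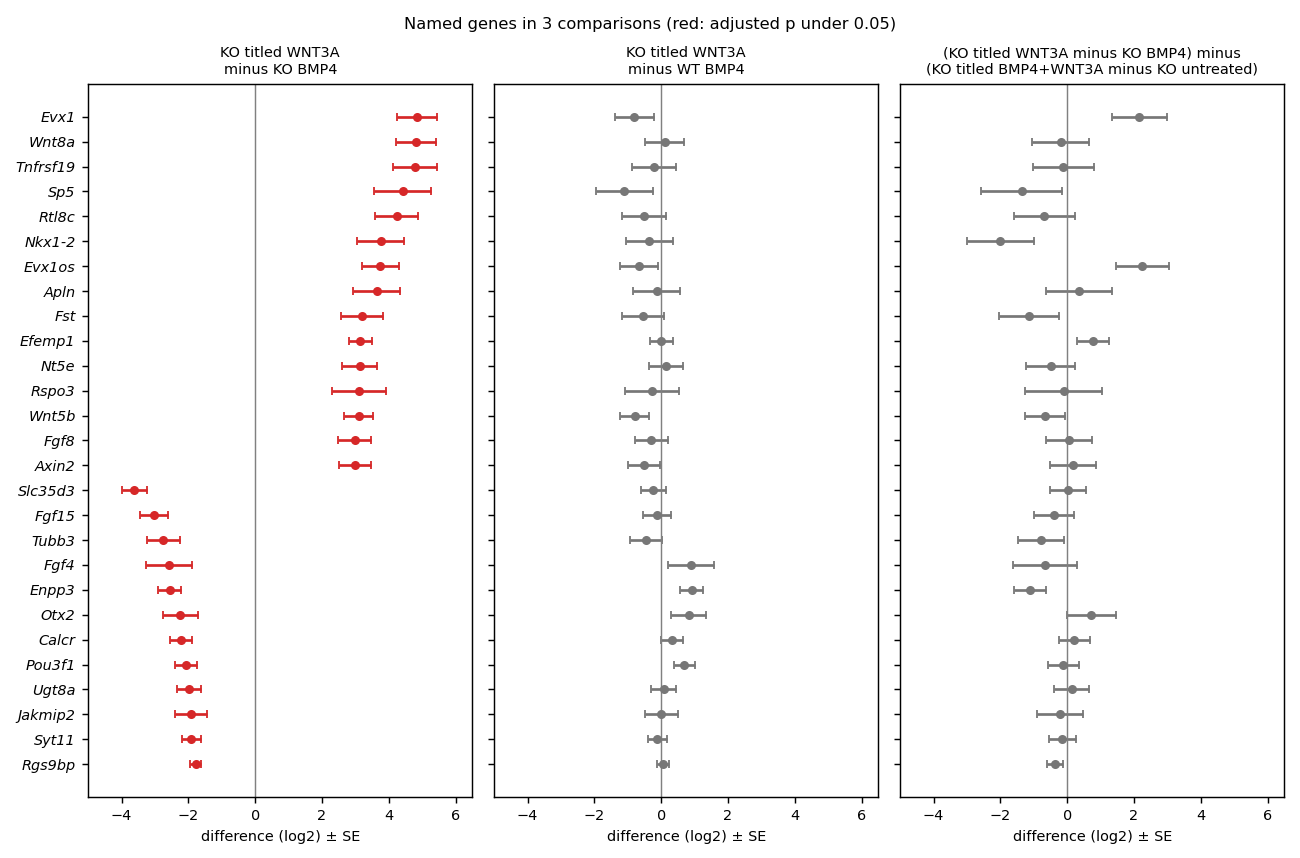
Model differences (log2) with SE of the 27 named genes in 3 comparisons, with red for an adjusted p under 0.05. Against KO BMP4 they reach 4.84 and -3.62, against WT BMP4 they lie between -1.11 and 0.91, and the difference between both WNT3A steps lies between -2.0 and 2.25.

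By the array names, the series also holds a step of WNT3A without BMP4: KO titled BMP4+WNT3A minus KO cells without cytokine. The step from KO BMP4 to KO titled WNT3A minus that step shares no array between its parts. In limma 0 of 13256 genes passed this difference (0.0%), with 360 at an unadjusted p under 0.05 and a smallest adjusted p of 0.999. Axin2 differed between the steps by 0.18 ± 0.68 (95% interval -1.26 to 1.62), Wnt8a by -0.20 ± 0.85 (-1.99 to 1.59) and Fgf8 by 0.06 ± 0.69. The intervals for 24 of the 27 named genes held 0 and were wide. The exceptions were Evx1, Evx1os and Enpp3. Evx1 read 17.88, 16.68 and 18.51 without cytokine and 85.63, 89.26 and 1053 in KO titled BMP4+WNT3A. Its steps differed by 2.16 ± 0.83 (0.40 to 3.92, adjusted p = 0.999), and those of Evx1os by 2.25 ± 0.79 (0.57 to 3.93). Enpp3 read 1872, 2628 and 2702 without cytokine and 760.1, 1243 and 797.9 in KO titled BMP4+WNT3A, and its steps differed by -1.12 ± 0.48 (-2.14 to -0.09). Nkx1-2 went the other way, with 1176, 3769 and 6654 in KO titled BMP4+WNT3A and a difference of -2.0 ± 1.0 (-4.13 to 0.13). Foxa2, which is not among the 27, read 380, 1552 and 2385 there, against 24.76, 32 and 37.53 in KO titled WNT3A, and its steps differed by -3.72 ± 0.93 (-5.69 to -1.74, adjusted p = 0.999).

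If the titles were right about which arrays received both cytokines, the comparison of WNT3A added to BMP4 would be KO titled BMP4+WNT3A minus KO BMP4. It shares the KO BMP4 arrays with the first comparison. In it 1026 genes passed (7.74%), 488 higher and 538 lower, but without the 24 h arrays 12. Sp5 differed by 5.96 ± 0.85, Nkx1-2 by 6.40 ± 0.71, Wnt8a by 5.78 ± 0.60, Tnfrsf19 by 5.14 ± 0.65, Foxa2 by 4.91 ± 0.66 and Hoxb1 by 4.85 ± 0.95. For KO titled WNT3A the same genes differed by 4.42, 3.75, 4.82, 4.78, 0.35 and 2.81. Among the lower genes Id2 differed by -4.79 ± 0.26 and Id1 by -4.28 ± 0.43, beside -0.35 and -0.09 for KO titled WNT3A. Fgf4 differed by -3.02, Foxd3 by -2.96, Slc35d3 by -2.95 and Otx2 by -2.94, beside -2.58, -1.71, -3.62 and -2.24. Evx1 differed by 2.69 ± 0.59 and Axin2 by 3.33 ± 0.48, beside 4.84 and 2.98.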

How the data were processed

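RNA of 23 cultures was hybridised to Affymetrix Mouse Genome 430 2.0 arrays, after cDNA amplification and biotin labelling per the labels' protocols. The authors deposited linear intensity values, 1 per probe set and array, and the steps that made them are not given in the sources used here. They lie on a log2 grid of 0.01 with a floor of 1, which holds 2.93% of them. Of 45101 probe sets 34958 name 1 gene in the platform annotation, 932 several and 9211 none. The last 2 kinds were not used, and 34754 of the first were matched to RefSeq.

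Array medians spread by 0.17 log2 and upper quartiles by 0.37, above the limit of 0.2 set for normalizing, so log2(value + 16) was quantile normalized. Each of 18194 genes was represented by its probe set of highest mean, and 13256 exceeded the array median on at least 3 arrays. The model in limma 3.58.1 (R 4.3.3) took the 21 arrays after 0 h, with 7 conditions and an additive term for each time, and had 12 residual degrees of freedom. Slopes had 6. The threshold was a Benjamini-Hochberg adjusted p under 0.05 over all genes.

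Named genes are the 15 higher and 12 lower genes of largest difference among those that passed with 1 direction over the 3 times, without gene models named by numbers, up to 6 each way in the other comparisons, list members, and Wnt3. The members and the gene lists were chosen with earlier results of these data known. On simulated data with 13256 genes, 88% of genes changed by 1 log2 unit and 98% changed by 2 were called for the first comparison, and 6 of 192 calls were false. For the difference between steps these were 69% and 96%, with 12 of 177 false. For WT BMP4 they were 90% and 97%, with 6 of 193 false, and for the slope 69% and 96%, with 2 of 167 false. The simulated noise was independent and normal around courses that all conditions shared, and the changed genes were drawn at random. The shares thus need not hold for responsive genes such as Axin2, whose step difference had an SE of 0.68. They do not show that the steps are equal. Alternatives covered normalization, offset, filter, probe sets, variance model, arrays fitted and the time block. Figures were drawn with matplotlib 3.10.9.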

Additional observations from a re-analysis of the deposited data

Results flagged for a closer look

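The difference between KO titled WNT3A and KO BMP4 changed with time for Parp9, by 1.26 on the log2 scale per 12 h (limma adjusted p = 0.0112), with -0.39 at 12 h, 0.77 at 24 h and 2.13 at 36 h. Each group holds 3 arrays, and groups of 3 were not tested for single outlying arrays.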

How the results depend on the processing

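The count of genes that differed between KO titled WNT3A and KO BMP4, 527, ranged from 412 to 654 under the alternatives that kept it within 1.5 times. It was 908 with array weights, 111 without the time block, 180 with an added limit of 1 log2 unit, and 0 to 474 when each time was left out. All 27 named genes kept their sign in each of the 17 refits, and 24 to 27 of them passed, except 16 without the time block and 0 without the 24 h arrays. The rule that chose them, by size and by 1 direction over the 3 times, favours a kept sign. The refits also share arrays with the first fit, so the kept sign adds no support. The slope count of 1 became 0 with values as deposited or median centring, 2 with array weights, 3 when the 3 arrays of highest Gapdh ratio were left out and 41 in a fit of the 12 KO arrays. Against WT BMP4 the count of 1 became 11 with array weights, 0 without the KO arrays titled BMP4+WNT3A or without the time block, and 0 to 5 when each time was left out. For KO titled BMP4+WNT3A minus KO BMP4 the count of 1026 became 268 without the time block, 309 with the added limit, and 12 to 708 when each time was left out. The difference between the steps stayed at 0. Fewer arrays enter the fits with a time left out, and why the counts changed was not tested. No slope was fitted with a time left out, without the time block or on the 6 arrays alone.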
